A study of Mus musculus with 69 samples.

Results

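The comparison asked how the hippocampus of adult mice lacking Cdh13 differed from that of wildtype mice when both had been separated from the dam as pups. It comprised the libraries of 7 separated knockout animals and 10 separated wildtype animals aged 66 days (P66), chosen by the genotype, rearing and age written in the column names of the count table, or 17 of the 69 libraries of the series. All 17 animals were males taken from litters that spent 3 h of each day away from the dam between P1 and P14, were weaned at P22 and then lived undisturbed to P66. They came from 2 rounds of breeding. Cohort 1 gave 5 separated knockout and 6 separated wildtype animals, and cohort 2 gave 2 separated knockout and 4 separated wildtype animals. Other animals served as points of comparison only. These were 7 control-reared knockout and 7 control-reared wildtype animals at P66, which were handled but stayed with the dam, and 10 separated knockout and 11 separated wildtype animals at P22. The labels give the genotype only as Cdh13 knockout or wildtype, and state neither the allele, the strain nor the litter of an animal. Animals were therefore treated as independent, and p-values measure the spread between animals only.

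Cdh13 encodes T-cadherin, an unusual cadherin that lacks the transmembrane and cytoplasmic parts of classical cadherins and is held on the cell surface by a glycolipid anchor. It binds high-molecular-weight adiponectin, and in the brain it is known from inhibitory interneurons and excitatory synapses of the hippocampus, and as a gene studied in attention-deficit disorders. Secreted and membrane proteins, T-cadherin among them, are folded in the endoplasmic reticulum (ER) by chaperones and disulfide isomerases whose genes are induced together when unfolded proteins accumulate.

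The tissue was hippocampus cut out of slices of frozen brain, and the values are reads per gene in bulk RNA. The count table as held has 9930 protein-coding genes, which lie on chromosomes 1 to 7 and at the start of chromosome 8. Cdh13 and the genes beyond were not analysed here, so the genotype of an animal rests on its label. In bulk tissue fewer cells of a type and less RNA per cell cannot be told apart. Totals over the held genes were 12.4 to 16.4 M counts (M, mega; median 14.04 M) in separated knockout libraries and 11.5 to 14.98 M (median 13.5 M) in separated wildtype libraries. Markers of the hippocampus were at high levels in all 17 libraries. Prox1, the transcription factor of dentate granule cells, had 196.3 to 341.5 CPM (counts per M counts of the held genes) in knockout and 192.9 to 378.7 CPM in wildtype animals. Neurod6, a transcription factor of pyramidal neurons, had 398.6 to 593.7 CPM in knockout and 404.1 to 549.2 CPM in wildtype animals.

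One library stood apart from the rest. On the first principal component of the 17 libraries, which held 27.8% of the variance, knockout animal C1-56 scored 35.7 and the next animal, knockout C1-58, scored 9.26. The component was led by Shox2 and Tnnt1, genes known from the thalamus, together with Fut9 and the zinc finger genes Zfp991, Zfp992 and Zfp993. C1-56 had the highest Tnnt1 level of the 17 animals, 22.1 CPM. Its summed level of genes of the thalamus, habenula and neighbouring regions was the lowest of the 17, 841.4 CPM. That sum was 955.8 to 1062 CPM in the other knockout animals and 908.8 to 1276 CPM in wildtype animals. Abundant members weigh most in such a sum, and the part of neighbouring tissue in this library was not tested. The same library was low in long transcripts. A score of long against short transcripts (the mean centred log2 level of the 690 genes with the longest transcripts minus that of the 690 with the shortest) was -0.473 in C1-56, and it lay between -0.144 and 0.145 in the other 16 animals. The second component, 19.4% of the variance, was led by genes of the choroid plexus such as Kcnj13, Folr1 and Aqp1.

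**Figure D1:**
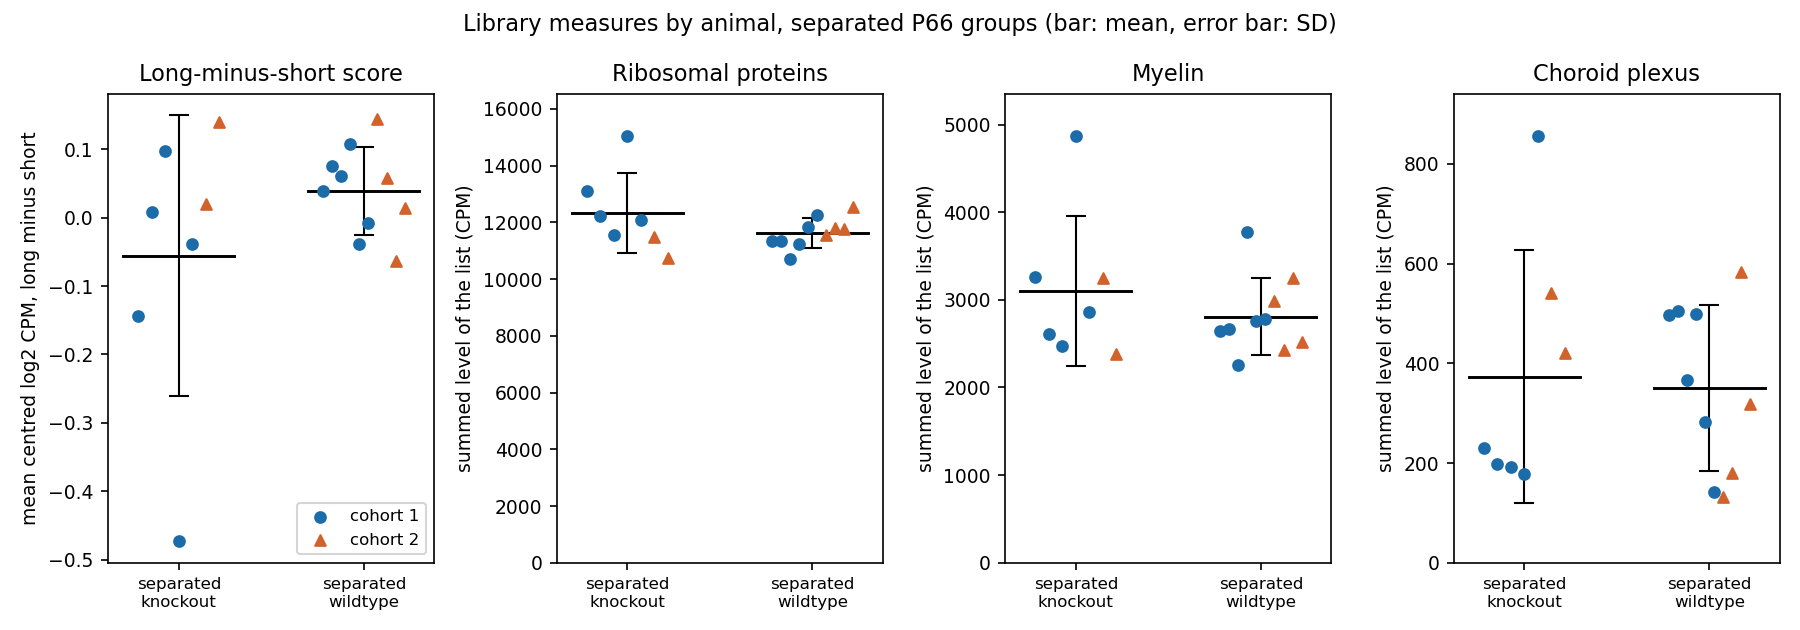
Library measures of the 7 separated knockout and 10 separated wildtype animals at P66, 1 point per animal (circles cohort 1, triangles cohort 2), with the group mean and SD: the long-minus-short transcript score (log2 scale, left) and the summed levels of 3 gene lists in CPM. Knockout C1-56 has the lowest score, -0.473, and the highest ribosomal protein and myelin sums, while the choroid plexus sums spread from 178.3 to 855.7 CPM in knockout and from 132.6 to 583.8 CPM in wildtype animals.

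No gene passed the test for a genotype difference after separated rearing. Of 6910 genes tested with edgeR's quasi-likelihood test and a term for cohort, 0 (0.0%) had a Benjamini-Hochberg adjusted p under 0.05, and the smallest adjusted p was 0.472. An unadjusted p under 0.05 was found for 520 genes (7.53%), 250 of them higher (3.62%) and 270 lower (3.91%) in knockout animals, where 346 are expected without any effect. Limma-voom also called 0 genes, with 554 at an unadjusted p under 0.05. DESeq2 called 3, Deaf1 (adjusted p = 0.0112), Pdia3 and Hspa5 (both adjusted p = 0.0397). Differences were measured with a median standard error (SE) of 0.0733 on the log2 scale. The 95% interval of the difference lay inside 1.5-fold in either direction for 6204 genes, or 89.8% of those tested. The count at an unadjusted p under 0.05 turned on single animals: it was 350 without knockout C1-56, 1025 without knockout C1-54 and 746 without wildtype C1-55, and with the long-minus-short score in the model, a setting chosen after the data were seen, it was 369. Calls remained at 0 in all of these fits.

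**Figure D2:**
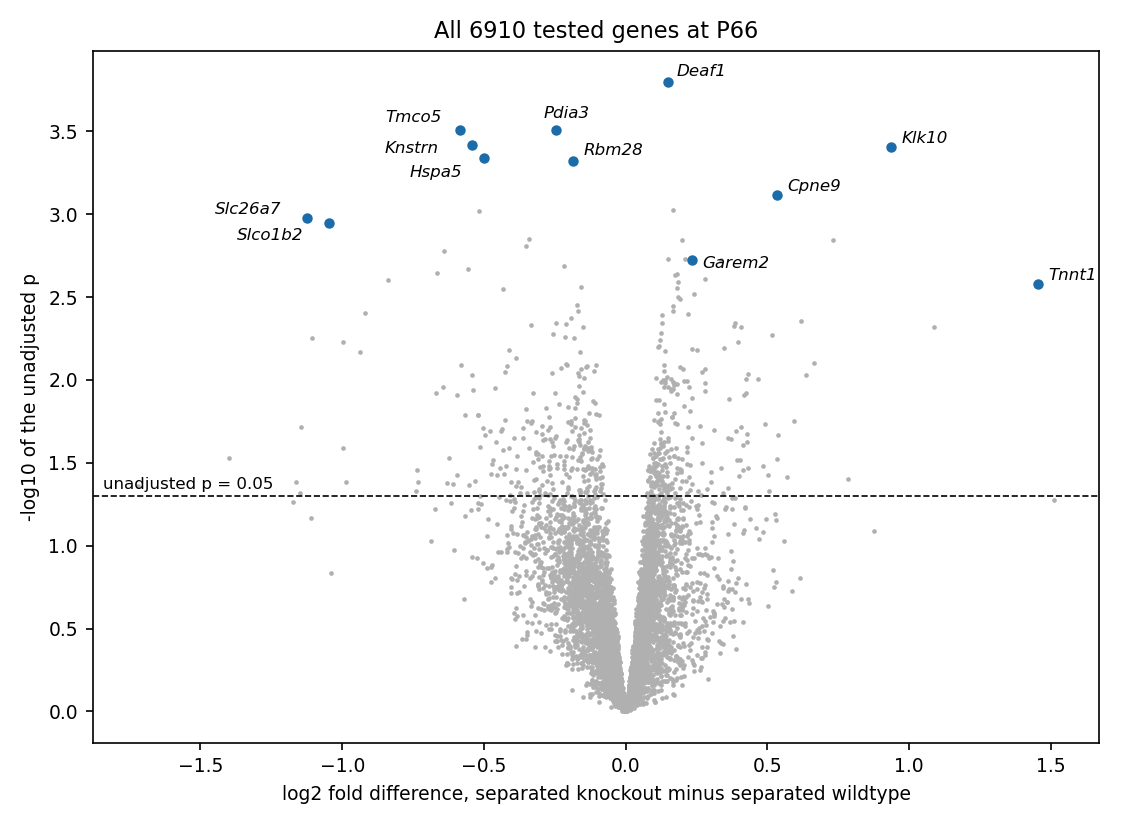
All 6910 tested genes at P66, 1 point per gene. The x axis is the log2 fold difference of separated knockout minus separated wildtype animals, the y axis the -log10 of the unadjusted p of edgeR's quasi-likelihood test, and the dashed line an unadjusted p of 0.05. Deaf1 has the smallest p at a difference of 0.15, Hspa5 lies at -0.50 and Pdia3 at -0.25, and Tnnt1 at 1.45 is the labelled gene farthest to the right.

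Of the 10 lower genes with the smallest p, 2 were ER chaperones or folding enzymes, Pdia3 and Hspa5, and edgeR called neither. The list of ER chaperones and folding enzymes held 22 of the 6910 tested genes, and an excess was not tested. Hspa5 encodes BiP, the Hsp70 chaperone of the ER that also keeps the sensors of the unfolded protein response inactive (ENSMUSG00000026864.13, GRCm38 chromosome 2, 34771970 to 34777547). Its level was 410.0, 455.1, 494.5, 534.9, 557.3, 596.9 and 644.9 CPM in the 7 separated knockout animals, against a lowest value of 540.5, a median of 730.1 and a highest value of 1013 CPM in the 10 separated wildtype animals. All 7 knockout animals lay below the wildtype median, and the groups overlapped only through wildtype C1-55, at 540.5 CPM, and wildtype C1-57, at 603.9 CPM. The difference was -0.50 ± 0.117 (log2, SE; 95% interval -0.74 to -0.25, edgeR adjusted p = 0.472), with DESeq2 giving the same -0.50 and a call. The cohorts did not give the same size. In cohort 2 the knockout animals had 455.1 and 410.0 CPM and the wildtype animals 840.2 to 1013 CPM, without overlap, and the difference was -1.07 ± 0.0907 (edgeR adjusted p = 0.00978, the only gene called in that cohort alone). In cohort 1 the knockout animals had 494.5 to 644.9 CPM and the wildtype animals 540.5 to 739.3 CPM, with a difference of -0.24 ± 0.0912 (adjusted p = 0.518). The call in cohort 2 rests on 2 knockout animals.

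Pdia3, a disulfide isomerase that works with calnexin and calreticulin on newly made glycoproteins (ENSMUSG00000027248.13, chromosome 2, 121413775 to 121438687), had 389.0, 402.8, 404.3, 415.1, 453.4, 457.8 and 478.7 CPM in knockout animals. In wildtype animals its lowest, median and highest levels were 435.2, 515.4 and 570.8 CPM. Again all 7 knockout animals were below the wildtype median, and wildtype C1-55 and C1-57 were the 2 animals inside the knockout range. The difference was -0.25 ± 0.0554 (95% interval -0.36 to -0.13, adjusted p = 0.472), or -0.43 in cohort 2 and -0.16 in cohort 1. Pdia4, another disulfide isomerase (ENSMUSG00000025823.9, chromosome 6, 47796141 to 47813430), had 67.2, 87.45 and 107.6 CPM as lowest, median and highest values in knockout animals and 77.11, 101.8 and 140.2 CPM in wildtype animals. Its groups overlapped over most of their range, and the difference of -0.20 ± 0.116 came with an adjusted p = 0.61. In cohort 2 it was -0.73, with both knockout animals below all 4 wildtype animals, and in cohort 1 it was 0.04. Without knockout C1-56 the differences of Hspa5, Pdia3 and Pdia4 were -0.51, -0.27 and -0.24.

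The promoters of these 3 genes are shown because the unfolded protein response acts on such genes through a known element, the ER stress element (ERSE), which RefSeq's sequence allows to be read beside the values. Each runs 5′ to 3′ on the gene's strand from 250 bases before to 50 bases after the start of transcription (RefSeq, GRCm38.p6). Hspa5 lies at chr2:34771840-34772139 on the plus strand, Pdia3 at chr2:121413652-121413951 on the plus strand and Pdia4 at chr6:47813463-47813762 on the minus strand. The RefSeq starts differ from those of the gene positions given above. For Pdia4 the whole window lies upstream of the gene as positioned there. Capitals mark exact matches to the ERSE (CCAAT and CCACG held apart by 9 bases of any kind), to CCACG alone, or to the core of the unfolded protein response element (UPRE, TGACGTG).
Hspa5: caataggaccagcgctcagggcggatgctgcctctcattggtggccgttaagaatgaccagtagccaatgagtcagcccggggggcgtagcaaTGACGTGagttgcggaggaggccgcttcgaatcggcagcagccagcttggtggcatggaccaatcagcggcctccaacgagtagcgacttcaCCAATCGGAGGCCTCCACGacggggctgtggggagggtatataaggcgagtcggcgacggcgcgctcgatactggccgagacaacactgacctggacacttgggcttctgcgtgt
Pdia3: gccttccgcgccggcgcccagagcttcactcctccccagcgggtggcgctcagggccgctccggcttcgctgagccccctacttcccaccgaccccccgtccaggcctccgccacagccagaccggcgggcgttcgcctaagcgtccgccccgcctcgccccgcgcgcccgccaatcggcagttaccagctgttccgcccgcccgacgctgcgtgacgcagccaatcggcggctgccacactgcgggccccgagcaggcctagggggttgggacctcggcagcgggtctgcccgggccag
Pdia4: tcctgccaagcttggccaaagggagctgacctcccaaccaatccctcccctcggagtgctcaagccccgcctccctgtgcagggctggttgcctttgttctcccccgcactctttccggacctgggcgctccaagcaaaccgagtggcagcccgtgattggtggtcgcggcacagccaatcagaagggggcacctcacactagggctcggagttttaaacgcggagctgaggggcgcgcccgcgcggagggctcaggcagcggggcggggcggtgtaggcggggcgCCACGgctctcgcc
Both strands of all 32851 RefSeq promoters of this length were searched. An exact ERSE was found in the Hspa5 promoter at bases 186 to 204 and in 39 promoters in all (0.119%). The UPRE core was found in the Hspa5 promoter at bases 94 to 100 and in 2.01% of promoters. The letters CCACG occur within the ERSE of Hspa5, at bases 287 to 291 of Pdia4 and in 32.8% of promoters. With 9 of the 10 fixed letters required, a match to the ERSE was also present in the promoters of Pdia3 (bases 222 to 240) and Pdia4 (bases 143 to 161, opposite strand), as in 494 promoters, or 1.5%. The heat shock element core GAANNTTC, the E-box CACGTG and the cAMP response element TGACGTCA, held by 7.86%, 7.15% and 1.79% of promoters, had no match in these 3 windows.

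**Figure D3:**
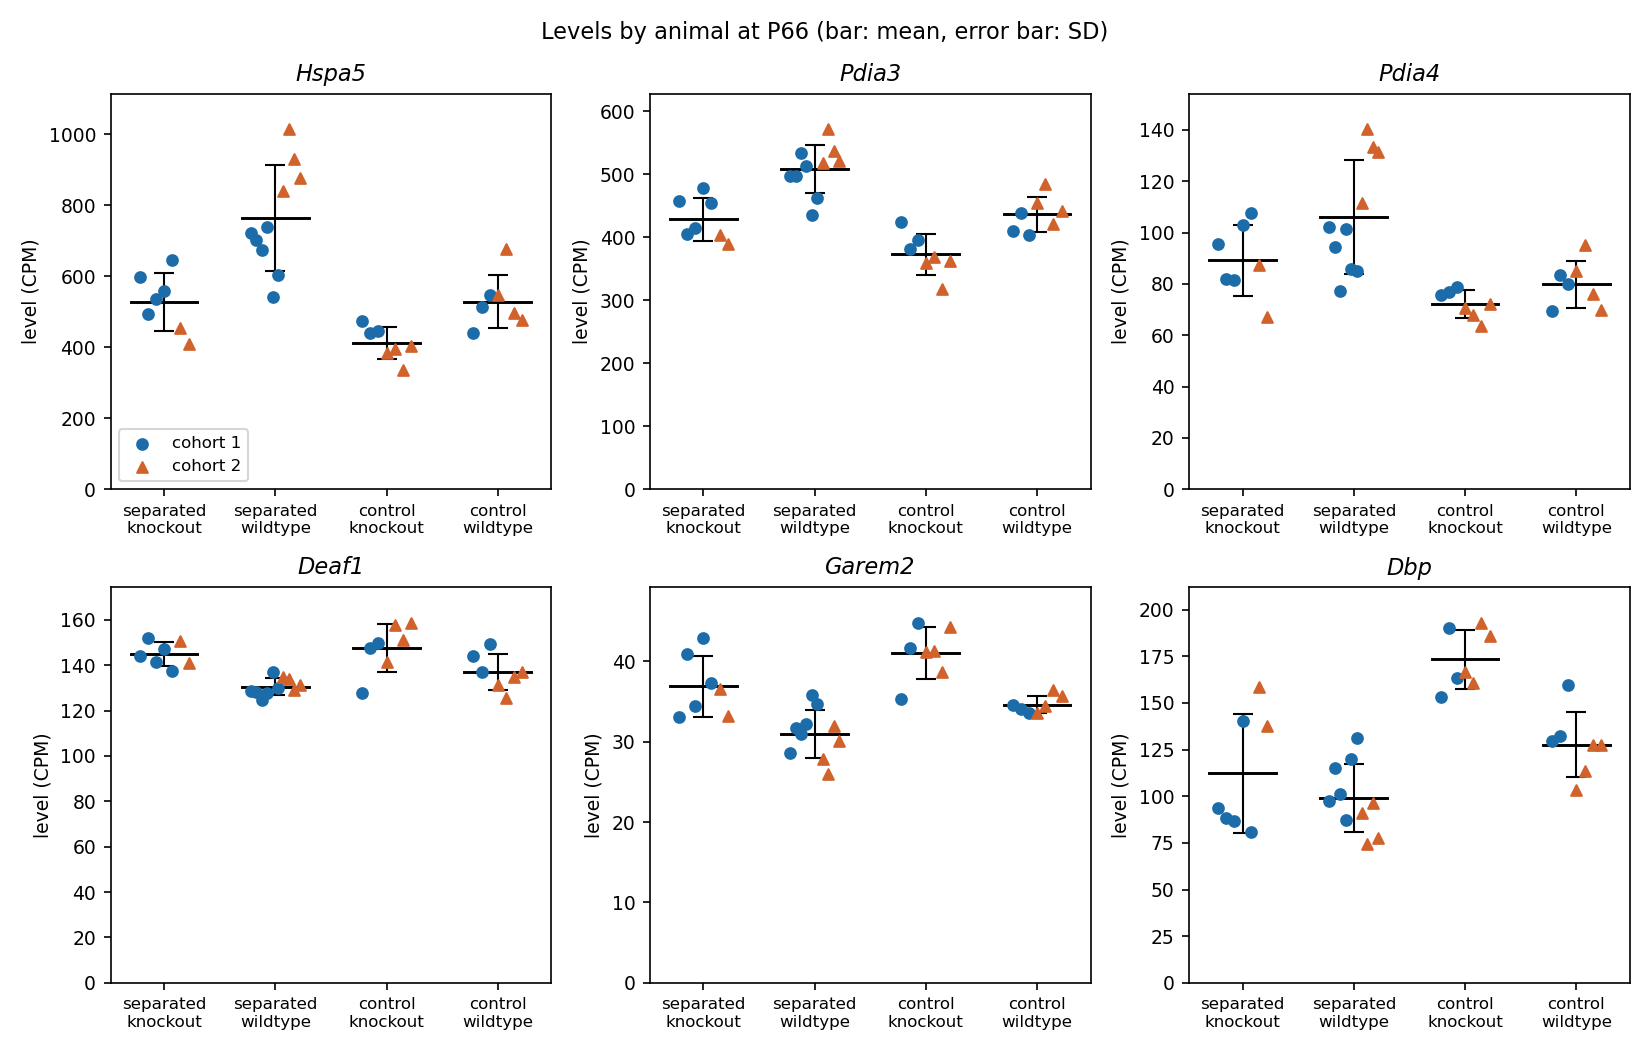
Levels in CPM of 6 genes at P66, 1 point per animal (circles cohort 1, triangles cohort 2), with the group mean (bar) and SD (error bar). The separated knockout and separated wildtype groups stand on the left and the control-reared groups on the right. In Hspa5 the 4 separated wildtype animals of cohort 2 lie between 840.2 and 1013 CPM and the 2 separated knockout animals of cohort 2 at 410.0 and 455.1 CPM, whereas in Deaf1 both cohorts show separated knockout animals above separated wildtype animals.

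Over the whole list of ER chaperones and folding enzymes the difference was smaller than in Hspa5. Of 53 listed genes 22 were tested, the rest not being in the held table, and 9 were above and 13 below 0 with a median difference of -0.04. Over all tested genes 50.4% were above 0 and the median was 0.00. At an unadjusted p under 0.05 5 were lower and 0 higher, while 3.91% of all tested genes were lower and 3.62% higher. The same shares stand beside the counts of the lists below. Besides Hspa5 and Pdia3 the 5 lower members were Erp44, which retains unassembled proteins by their thiols (-0.14), Fkbp14, a prolyl isomerase acting on collagens (-0.15), and Uggt1, the enzyme that recognises misfolded glycoproteins (-0.09). Without knockout C1-56 the median of the list was -0.02, and in cohorts 1 and 2 it was 0.01 and -0.06. The summed level of the list was 3696 to 4166 CPM in knockout and 3986 to 4808 CPM in wildtype animals.

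Cytosolic and mitochondrial heat-shock genes had a similar split. Of 23 tested members 8 were above and 15 below 0, and the median difference was -0.02. At an unadjusted p under 0.05 6 were lower and 0 higher, against 3.91% and 3.62% of all tested genes. The 6 were the small heat-shock gene Hspb1 (-0.41 ± 0.134), the Hsp110-type exchange factors Hspa4l (-0.27) and Hsph1 (-0.12), the J-domain cochaperones Dnajb4 (-0.20) and Dnaja1 (-0.12), and Cacybp (-0.17). Hspb1 had 8.05 to 13.9 CPM in knockout and 10.1 to 18.8 CPM in wildtype animals. Its 4 wildtype animals of cohort 2, at 16.5 to 18.8 CPM, were above every knockout animal, and the difference was -0.99 in cohort 2 and -0.15 in cohort 1. Hsph1 (chromosome 5, 149614287 to 149636376) had 719.5, 807.7 and 915.0 CPM as lowest, median and highest values in knockout and 822.4, 886.3 and 955.1 CPM in wildtype animals. Its 2 lowest animals were the 2 knockout animals of cohort 2, and the difference was -0.30 in cohort 2 and -0.04 in cohort 1. The median of the list was -0.19 in cohort 2 and 0.03 in cohort 1, against -0.02 in the pooled fit, so its sign differed between the cohorts.

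Other genes of the secretory pathway had medians near 0. Among 17 tested sensors and transcription factors of the unfolded protein response 11 were above and 6 below 0. Their median was 0.05, or 0.01 without C1-56, whose summed level of 1431 CPM was the highest of the 17 animals, and it was -0.06 in cohort 2 and 0.10 in cohort 1. At the level of single genes 2 were higher at an unadjusted p under 0.05. These were Creb3l1, a transcription factor held in the ER membrane (0.28 ± 0.0974), and Sesn2, a stress-induced sestrin (0.16 ± 0.0745). Of 27 tested genes of ER translocation, glycosylation and degradation 14 were above and 13 below 0 (median 0.00, -0.02 without C1-56, -0.04 in cohort 2 and 0.01 in cohort 1), with 2 lower at an unadjusted p under 0.05: Alg8, a glucosyltransferase of N-glycan assembly (-0.12), and Ostc, a subunit of oligosaccharyltransferase (-0.10). Of 22 tested genes of transport from the ER to the Golgi 13 were above and 9 below 0 (median 0.03, or 0.01 without C1-56) and none had an unadjusted p under 0.05. The 2 with the smallest p were the SNARE genes Bet1 (-0.18 ± 0.0902) and Sec22b (-0.07 ± 0.0374).

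**Figure D4:**
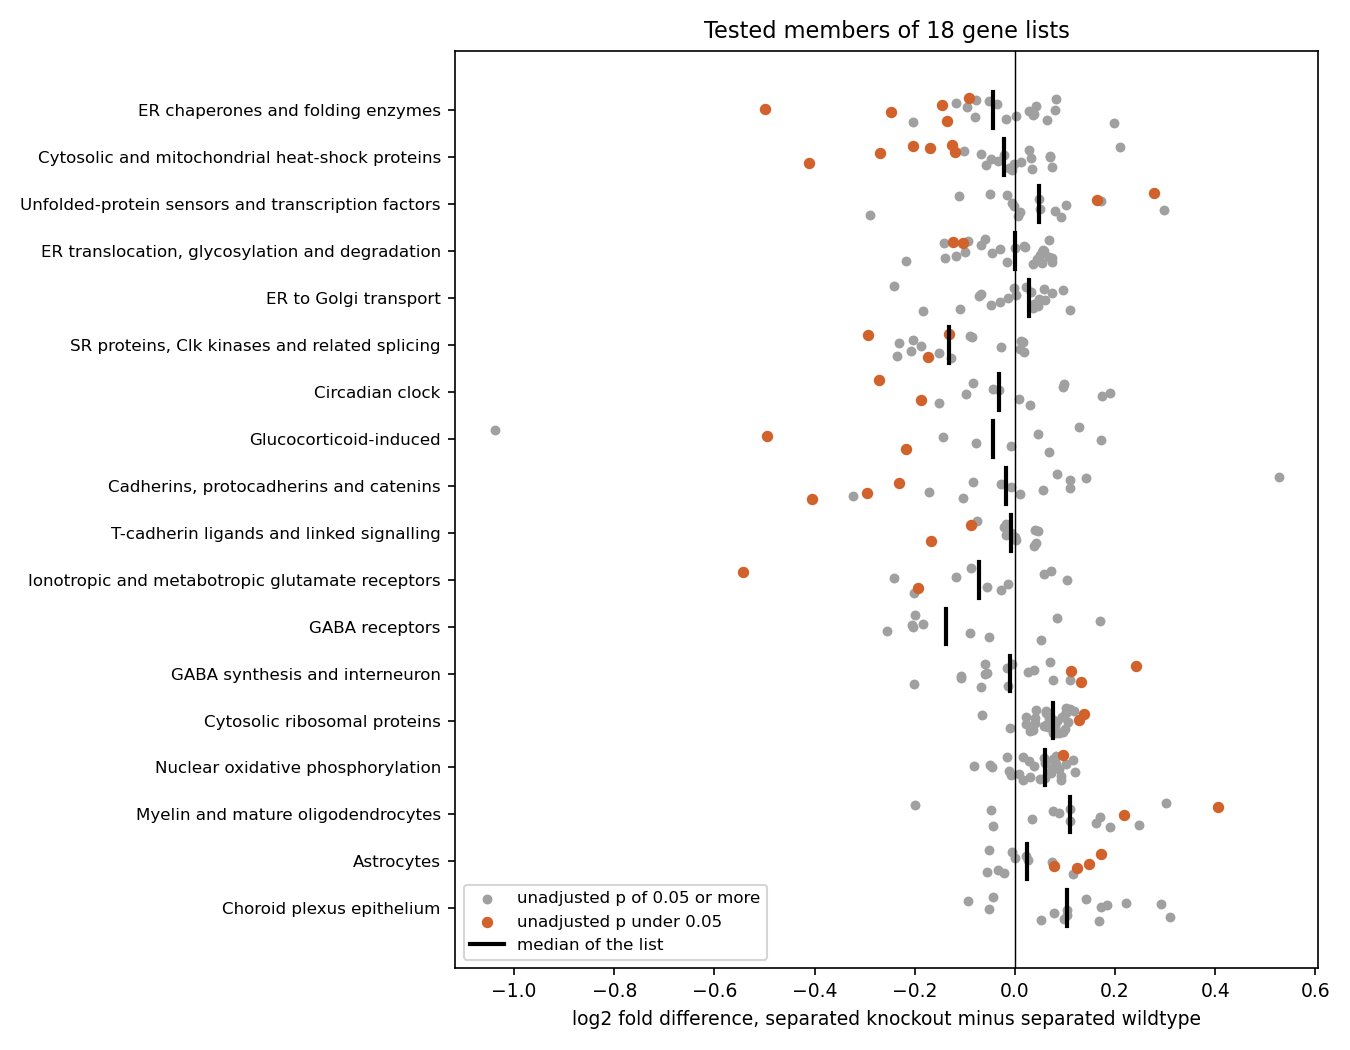
Log2 fold differences of separated knockout minus separated wildtype animals for every tested member of 18 gene lists, 1 point per gene, with the median of each list as a bar. Orange points are genes with an unadjusted p under 0.05, which 7.53% of all tested genes had. The chaperone and heat-shock lists have 5 and 6 such genes, all below 0, at list medians of -0.04 and -0.02, and ribosomal protein genes lie above 0 in 33 of 35 members.

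Among the genes higher in knockout animals, Deaf1 had the smallest p of all. It encodes a transcription factor that is needed for normal brain development in humans (ENSMUSG00000058886.9, chromosome 7, 141297180 to 141327690). Its level was 137.6, 141.0, 141.4, 144.1, 147.3, 150.7 and 151.9 CPM in knockout animals, against 124.5, 129.5 and 137.0 CPM as lowest, median and highest values in wildtype animals. The groups did not overlap, the lowest knockout animal being C1-58 at 137.6 CPM and the highest wildtype animal C1-55 at 137.0 CPM. Deaf1 was the 1 gene of the 6910 (0.0145%) for which all knockout animals lay above all wildtype animals, and for 0 genes did they all lie below. The difference was small, 0.15 ± 0.0315 (95% interval 0.08 to 0.22, adjusted p = 0.472 by edgeR and 0.0112 by DESeq2), and it was 0.15 in cohort 1 and 0.15 in cohort 2. Over all alternatives it stayed between 0.14 and 0.16.

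Garem2, an adaptor between growth factor receptors and Erk signalling (ENSMUSG00000044576.6, chromosome 5, 30105161 to 30118378), had 33.1, 36.55 and 42.9 CPM as lowest, median and highest values in knockout and 25.98, 31.3 and 35.8 CPM in wildtype animals. All 7 knockout animals were above the wildtype median, and the groups overlapped between 33.1 and 35.8 CPM. The difference was 0.23 ± 0.0640 (adjusted p = 0.591), with 0.21 in cohort 1 and 0.28 in cohort 2. Klk10, a secreted serine protease of the kallikrein family, had a larger difference at a low level, 0.94 ± 0.2155. It had 1.92, 3.37 and 4.83 CPM as lowest, median and highest values in knockout and 1.09, 1.88 and 2.80 CPM in wildtype animals, so 6 of 7 knockout animals were above every wildtype animal and C1-54 lay among them. Cpne9, a calcium-dependent phospholipid-binding copine, differed by 0.53 ± 0.132. It had 48.6 to 83.2 CPM in knockout and 32.8 to 64.1 CPM in wildtype animals, with C1-54 again the lowest of the knockout animals. The remaining 6 of the 10 higher genes with the smallest p were Tril, a coreceptor of Toll-like receptor 4 (0.17), Bcl7c, a subunit of the BAF chromatin remodelling complex (0.20), Otos (0.73, at 1.084 to 3.82 CPM), Daglb, an enzyme that makes the endocannabinoid 2-arachidonoylglycerol (0.21), Tmem219, a receptor of the growth-factor-binding protein IGFBP3 (0.15), and Gpr153, an orphan receptor (0.34). Each had an adjusted p = 0.591 and was on that side in both cohorts. Of 516 genes with an unadjusted p under 0.05 in the pooled fit, 492 (95.35%) had the same sign in both cohorts. Both cohorts are in that fit, so choosing genes by its p favours equal signs. Exons of Daglb and Tril overlap those of genes on the opposite strand (Rac1 over 24.1% of the bases of Daglb), and the sources used here do not state whether counting used strand.

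Among the genes lower in knockout animals, Tmco5 and Knstrn stood beside Pdia3 and Hspa5. Tmco5 had 2.14, 2.49 and 3.195 CPM as lowest, median and highest values in knockout and 2.90, 3.91 and 5.09 CPM in wildtype animals, a difference of -0.58 ± 0.131 (adjusted p = 0.472). Only wildtype C1-55, at 2.90 CPM, lay within the knockout range. Knstrn, which encodes a protein of the mitotic spindle and kinetochore, had 3.53, 4.86 and 5.99 CPM in knockout and 5.69, 7.22 and 8.76 CPM in wildtype animals. The groups met at 5.69 to 5.99 CPM, and the difference was -0.54 ± 0.125 (adjusted p = 0.472), with -0.41 in cohort 1 and -0.83 in cohort 2. Rbm28, a nucleolar protein of ribosome assembly, had 148.7, 166.2 and 179.3 CPM in knockout and 167.2, 188.1 and 192.7 CPM in wildtype animals (-0.18 ± 0.04325), with all 7 knockout animals below the wildtype median. Spp1, which encodes the secreted protein osteopontin, had 4.91, 5.54 and 6.998 CPM in knockout and 5.46, 8.26 and 10.5 CPM in wildtype animals (-0.52 ± 0.131, adjusted p = 0.591). The other 4 were Slc26a7, an anion transporter (-1.12 ± 0.288), Slco1b2, an organic anion transporter known from the liver (-1.05 ± 0.271), Sfmbt2, a Polycomb-group protein (-0.34), and Nabp1, which binds single-stranded DNA (-0.35). Slc26a7 was at 0.286 to 0.868 CPM in knockout and 0.738 to 2.11 CPM in wildtype animals, so each value rests on few reads.

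Wildtype C1-55 was the wildtype animal closest to the knockout animals in Hspa5, Pdia3, Deaf1, Garem2, Tmco5 and Rbm28. Its genotype label was not checked on Cdh13. Without it Hspa5 and Pdia3 had adjusted p = 0.1885 by edgeR and Deaf1 likewise, the lowest values over the fits that left out 1 animal, and 0 genes were called. C1-55 was picked after the values were seen, for lying nearest to the knockout animals in these same genes. Leaving it out moves the groups apart in them by that choice, so no conclusion is drawn from these p-values.

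Clock genes were examined because the time of day at which tissue is taken can move them, and the labels give no hour of collection. Of 13 tested members 6 were above and 7 below 0 (median -0.03), with 2 lower at an unadjusted p under 0.05: Per3, a period gene (-0.19 ± 0.0741), and Npas2, a partner of BMAL1 (-0.27 ± 0.103). Dbp, an output gene of the clock, separated the cohorts. In cohort 2 the knockout animals had 158.4 and 137.5 CPM and the wildtype animals 74.7 to 96.3 CPM, a difference of 0.81 ± 0.1125 (edgeR adjusted p = 0.0519). In cohort 1 the knockout animals had 81.0 to 140.5 CPM and the wildtype animals 87.2 to 131.0 CPM, a difference of -0.16 ± 0.141. Ciart, a repressor within the clock, went with it at 0.61 in cohort 2 and -0.03 in cohort 1. Arntl, which encodes BMAL1, was at -0.16 in cohort 2 and 0.12 in cohort 1. In the pooled fit the 3 genes differed by 0.17, 0.19 and 0.03, with adjusted p between 0.61 and 0.794 by edgeR. Exons of Dbp overlap those of Sphk2 on the opposite strand.

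Genes of the stress response lay on both sides of 0. Of 10 tested glucocorticoid-induced genes 4 were above and 6 below 0 (median -0.04, or -0.16 in cohort 2 and 0.04 in cohort 1), with Hif3a, a hypoxia-inducible factor subunit (-0.50 ± 0.197), and Mertk, a receptor for the engulfment of dying cells (-0.22 ± 0.0605), lower at an unadjusted p under 0.05. Hif3a spread widely, with 6.12 to 12.4 CPM in knockout and 8.40 to 21.1 CPM in wildtype animals. The member farthest from 0, Lcn2, which encodes the secreted protein lipocalin-2, was at -1.04 ± 0.685 (edgeR adjusted p = 0.61) and was named after its values were seen. It had 0.234 to 9.50 CPM in knockout and 0.144 to 12.3 CPM in wildtype animals, the highest knockout animal being C1-56. Of 7 tested genes of the stress axis and oxytocin 2 were above and 5 below 0. Those with the smallest p were the vasopressin receptor gene Avpr1b (0.48 ± 0.263) and Hsd11b1, whose enzyme regenerates active glucocorticoid (0.15 ± 0.0882). Immediate early genes were split evenly, 7 above and 7 below 0, with Nptx2 (0.30 ± 0.134) and Nr4a2 (-0.35 ± 0.164) at an unadjusted p under 0.05. Without knockout C1-56 Nptx2 was at 0.17.

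The lists nearest to T-cadherin were close to 0 as a whole. Of 16 tested cadherins, protocadherins and catenins 7 were above and 9 below 0 (median -0.02), with Cdh19 (-0.40 ± 0.184), Cdh22 (-0.30 ± 0.125) and Cdh20 (-0.23 ± 0.09705) lower at an unadjusted p under 0.05. Cdh19 was at -0.64 in cohort 1 and 0.04 in cohort 2. Of 13 tested genes of T-cadherin's ligands and linked signalling 6 were above and 7 below 0 (median -0.01). The 2 at an unadjusted p under 0.05 were subunits of the energy sensor AMPK, Prkab2 (-0.17 ± 0.0506) and Prkag2 (-0.09 ± 0.0401). Prkab2 had 146.9 to 181.2 CPM in knockout and 159.0 to 198.3 CPM in wildtype animals, with every knockout animal below the wildtype median of 186.1 CPM.

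Receptor genes were below 0 in most members, but the sign of their medians turned between the cohorts. Of 12 tested glutamate receptors 3 were above and 9 below 0 (median -0.07, or 0.06 in cohort 2 and -0.17 in cohort 1, and -0.03 with the long-minus-short score in the model), with the presynaptic metabotropic receptors Grm8 (-0.54 ± 0.1865) and Grm7 (-0.19 ± 0.0740) lower at an unadjusted p under 0.05. Grm8 had 11.9 to 15.9 CPM in knockout and 10.3 to 29.7 CPM in wildtype animals, the knockout range lying inside that of the wildtype. The summed level of glutamate receptors was 4678 CPM in C1-56 and 6031 to 7282 CPM in the other knockout animals, against 5910 to 6936 CPM in wildtype animals. Of 10 tested GABA receptor genes 3 were above and 7 below 0 with a median of -0.14, and none had an unadjusted p under 0.05. That median was 0.09 in cohort 2 and -0.18 in cohort 1. Without C1-56 it was -0.03, and with the long-minus-short score in the model it was 0.01. Gabrg1 (-0.26 ± 0.137) and Gabrg3 (-0.20 ± 0.118) had the smallest p, at -0.15 and -0.10 without C1-56.

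Interneuron genes, a cell class in which T-cadherin is known, were 8 above and 10 below 0 of 18 tested (median -0.01). The neuropeptide gene Npy (0.24 ± 0.0704) and the transcription factors Npas1 (0.13 ± 0.0555) and Dlx1 (0.11 ± 0.0510) were higher at an unadjusted p under 0.05, as were 3.62% of all tested genes. Npy had 78.05, 85.9 and 123.0 CPM as lowest, median and highest values in knockout and 70.5, 74.5 and 85.6 CPM in wildtype animals. All 7 knockout animals were above the wildtype median, the highest was C1-56, and without it the difference was 0.17.

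An unadjusted p under 0.05, which 7.53% of all tested genes had, was found for 2 of 31 voltage-gated channel genes, 1 of 23 genes of presynaptic release and 2 of 13 postsynaptic scaffold genes. Of 31 tested voltage-gated channels 10 were above and 21 below 0 (median -0.04, or -0.01 without C1-56), with Kcnc4 lower (-0.20 ± 0.0823) and Kcnh2 higher (0.15 ± 0.0708) at an unadjusted p under 0.05. Of 23 genes of presynaptic release 14 were above 0, with Slc17a7, the vesicular glutamate transporter of hippocampal principal cells, at 0.11 ± 0.0508, and Slc17a6, that of thalamic neurons, at -0.41 ± 0.198 with an unadjusted p above 0.05. Of 13 postsynaptic scaffold genes 7 were above and 6 below 0, with the netrin-G ligand genes Lrrc4 (0.08 ± 0.0351) and Lrrc4c (-0.22 ± 0.0952) on opposite sides. Of 15 neurotrophin and IGF genes 10 were above 0 and none had an unadjusted p under 0.05 (Sort1, a sorting receptor, 0.06 ± 0.0487). Of 13 receptors for serotonin, dopamine, noradrenaline and acetylcholine 6 were above 0, with Chrm2, a muscarinic receptor, at -0.31 ± 0.129. Of 9 cholesterol synthesis genes 8 were above 0 (median 0.08), with Mvk, mevalonate kinase, at 0.20 ± 0.0712 and Insig2, which restrains the pathway, at -0.12 ± 0.05005.

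Several lists moved with library C1-56, an animal of cohort 1, and their medians also differed between the cohorts. Of 17 tested splicing genes (SR proteins, their Clk kinases and partners) 4 were above and 13 below 0 with a median of -0.13. Tra2a (-0.29 ± 0.116), Srsf6 (-0.17 ± 0.0629) and Srrm1 (-0.13 ± 0.0568) were lower at an unadjusted p under 0.05, as were 3.91% of all tested genes. Without C1-56 the median was -0.08, and with the long-minus-short score in the model -0.05. It was -0.18 in cohort 1 and 0.02 in cohort 2. Ribosomal protein genes were above 0 in 33 of 35 tested members (median 0.08, Rplp0 0.14 ± 0.0632, Rpl7a 0.13 ± 0.0546), but the median was 0.03 without C1-56, 0.16 in cohort 1 and -0.09 in cohort 2. Their summed level was 15040 CPM in C1-56, 10750 to 13100 CPM in the other knockout animals and 10700 to 12530 CPM in wildtype animals. Nuclear genes of oxidative phosphorylation were above 0 in 25 of 31 members, with Ndufc1 at 0.10 ± 0.0420 and Ndufa3 at 0.12 ± 0.06045. Their median was 0.06, or 0.03 without C1-56, 0.10 in cohort 1 and -0.02 in cohort 2. Myelin genes were above 0 in 12 of 15 members (median 0.11), with Ppp1r14a (0.41 ± 0.173) and Gpr37 (0.22 ± 0.0895) higher at an unadjusted p under 0.05. The myelin sum was 4867 CPM in C1-56 and 2379 to 3265 CPM in the other knockout animals, against 2260 to 3770 CPM in wildtype animals. Without C1-56 the median of the myelin list was 0.01, and it was 0.17 in cohort 1 and 0.05 in cohort 2.

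The astrocyte list had a median near 0. Of 14 tested astrocyte genes 9 were above and 5 below 0 (median 0.02). At an unadjusted p under 0.05 4 were higher and 0 lower, against 3.62% and 3.91% of all tested genes. The 4 were the GABA transporter Slc6a11 (0.17 ± 0.0600), the neutral amino acid transporter Slc7a10 (0.15 ± 0.0680), Fjx1 (0.12 ± 0.0486) and the lipid phosphatase Plpp3 (0.08 ± 0.0354). Slc6a11 had 342.0, 380.6 and 427.8 CPM as lowest, median and highest values in knockout and 287.7, 330.1 and 373.7 CPM in wildtype animals, with all 7 knockout animals above the wildtype median. The differences of Slc6a11 and Slc7a10 were 0.15 and 0.16 without C1-56. The summed level of the astrocyte list was 13980 to 14870 CPM in knockout and 13820 to 15080 CPM in wildtype animals, the knockout range lying inside that of the wildtype.

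Other cell types showed few differences. Microglia and macrophage genes were above 0 in 15 of 22 members (median 0.03, or -0.01 without C1-56) and only Mertk had an unadjusted p under 0.05, while Laptm5 was at 0.12 ± 0.0781. Among inflammation genes Tlr4, the receptor for bacterial lipopolysaccharide, was at -0.43 ± 0.170 with an unadjusted p under 0.05, and at -0.33 without C1-56. Endothelial genes were above 0 in 15 of 20 members (Egfl7 0.14, Lef1 0.25) and pericyte and smooth muscle genes in 8 of 10 (Kcnj8 0.20, Abcc9 0.13), with no member at an unadjusted p under 0.05. Oligodendrocyte precursor genes were 3 above and 5 below 0 (median -0.03, or 0.01 without C1-56), with Sox6 at -0.15 ± 0.0665 and Lhfpl3 at -0.09. Meningeal and matrix genes were 5 above and 9 below 0, with the fibronectin gene Fn1 at -0.33 ± 0.103 and Mgp at -0.12. Blood genes (Hbb-bs -0.14, Cd79a -0.37), stem cell and newborn neuron genes (Mki67 -0.31, Igfbpl1 0.21) and dentate granule cell genes (Il16 0.18, Calb1 -0.19) had no member at an unadjusted p under 0.05. Of 13 CA field genes 5 were above and 8 below 0. At an unadjusted p under 0.05 were 3 of the 13, against 7.53% of all tested genes. Bok (0.27 ± 0.109) and Slc17a7 were higher and Fn1 was lower.

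Choroid plexus RNA varied several-fold between animals of each genotype. The summed level of the list was 178.3, 230.0 and 855.7 CPM as lowest, median and highest values in knockout and 132.6, 342.5 and 583.8 CPM in wildtype animals, and 0 of 15 tested members had an unadjusted p under 0.05. The list median was 0.10 in the pooled fit, 0.29 without C1-56, 0.82 in cohort 2 and -0.21 in cohort 1. In cohort 2 the knockout animals had 541.4 and 419.8 CPM and the wildtype animals 132.6 to 583.8 CPM. Slco1a5 (0.31 ± 0.270) and Msx1 (0.22 ± 0.257) had the smallest p. Ependymal genes were above 0 in 8 of 13 members (Tm4sf1 0.19, Ccdc39 -0.31), with none at an unadjusted p under 0.05. Genes of the thalamus and habenula were 7 above and 10 below 0, with a median of -0.06 and members from -1.11 to 1.45. Their summed level was 841.4 to 1062 CPM (median 965.3) in knockout and 908.8 to 1276 CPM (median 1031) in wildtype animals. Tnnt1 (1.45 ± 0.417), Synpo2 (0.41 ± 0.126) and Syt9 (0.42 ± 0.147) were higher and Nr4a2 lower at an unadjusted p under 0.05. Tnnt1 had 22.1, 18.2 and 12.8 CPM in knockout C1-56, C2-53 and C1-58 and 2.30 to 7.29 CPM in the other 4, against 1.78 to 7.15 CPM in wildtype animals. Its difference was 1.098 without C1-56, and the part of neighbouring tissue in it was not tested.

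The genotype difference after separated rearing was set beside that after control rearing. In the 14 control-reared animals none of 6855 genes was called by edgeR (0.0%) and 330 (4.81%) reached an unadjusted p under 0.05, while limma-voom called 0 and DESeq2 called 7, among them Hspa5, Garem2, Hsph1, Dbp, Ciart and Acot11. The difference between the 2 genotype effects was tested as an interaction over all 31 animals at P66, and 0 of 7001 genes (0.0%) passed, with 317 (4.53%) at an unadjusted p under 0.05 and 0 calls by DESeq2 or limma-voom. Several genes with a small p after separated rearing had a like value after control rearing. Pdia3 differed by -0.25 after separated and -0.23 after control rearing (interaction -0.02, 95% interval -0.18 to 0.14), Garem2 by 0.23 and 0.25 (interaction 0.00, -0.22 to 0.22), Deaf1 by 0.15 and 0.11 (0.04, -0.07 to 0.16), Hspa5 by -0.50 and -0.37 (-0.16, -0.49 to 0.16) and Spp1 by -0.52 and -0.69. Others were near 0 after control rearing, among them Cpne9 (-0.05), Gpr153 (-0.02), Bcl7c (0.02), Tmco5 (-0.07) and Slco1b2 (-0.06). Among heat-shock genes Hspb1 differed by -0.41 after separated and -0.50 after control rearing, Hsph1 by -0.12 and -0.24, and Dnajb4 by -0.20 and -0.02. The median of the heat-shock list was -0.02 after separated and -0.07 after control rearing. That of the ER chaperone list was -0.04 after both. Of the 512 genes with an unadjusted p under 0.05 after separated rearing and a value in both, 331 (64.65%) had the same sign after control rearing. The share of same signs over all genes was not computed. Over all 6846 genes with both values the Pearson correlation across genes was 0.031 and Spearman's rho 0.027, where genes are not independent of each other and the 2 comparisons share no animal.

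The smallest p of the interaction belonged to Tas1r3, a subunit of the sweet and umami taste receptors. It had 0.383, 0.904 and 1.24 CPM as lowest, median and highest values in separated knockout, 0.289, 0.674 and 1.14 CPM in separated wildtype, 0.267, 0.536 and 0.731 CPM in control knockout and 1.083, 1.145 and 1.475 CPM in control wildtype animals. The control-reared groups did not overlap, the separated groups did, and the interaction was 1.501 ± 0.331 (adjusted p = 0.6). Acot11, an acyl-CoA thioesterase, had an interaction of 0.37 ± 0.0978, with 0.05 after separated and -0.31 after control rearing. Vangl1, a planar polarity protein, had 0.56 ± 0.149 (0.38 and -0.17), and Lpcat3, an enzyme that adds polyunsaturated chains to phospholipids, 0.24 ± 0.0657 (0.14 and -0.10). Per3 had -0.41 ± 0.112, with -0.19 after separated and 0.22 after control rearing. Each of these 4 had an adjusted p = 0.7945 by edgeR. Exons of Acot11 overlap Fam151a on the opposite strand over 20.9% of their bases, and those of Lpcat3 overlap Emg1 over 10.2%.

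At P22, in 10 separated knockout and 11 separated wildtype animals, none of 6923 genes was called by edgeR (0.0%) and 112 (1.62%) reached an unadjusted p under 0.05, while limma-voom called 0 and DESeq2 1. The chaperones showed no difference of the size seen at P66. Hspa5 had 479.6, 616.9 and 903.4 CPM as lowest, median and highest values in knockout and 478.9, 581.3 and 931.1 CPM in wildtype animals, a difference of 0.01 ± 0.116 (95% interval -0.23 to 0.25). Pdia3 differed by -0.03 ± 0.0586, Deaf1 by -0.02 and Garem2 by 0.02. The genotype effect at P66 minus that at P22 was -0.50 ± 0.173 for Hspa5 and -0.21 ± 0.0820 for Pdia3, and 0 of 7055 genes (0.0%) passed this test, with 319 (4.52%) at an unadjusted p under 0.05 and 0 calls by DESeq2 or limma-voom. The smallest p were those of Knstrn (-0.69 ± 0.175, from -0.54 at P66 and 0.15 at P22), Thnsl2 (0.44 ± 0.116), Snapin, a binding partner of the SNARE complex (0.20 ± 0.0536), Tmem182 (1.77 ± 0.4755, at up to 1.22 CPM) and Slc6a12, a betaine and GABA transporter (-1.19 ± 0.326). All had an adjusted p = 0.8675 by edgeR. Over 6864 genes the correlation across genes between the differences at P66 and at P22 was 0.011 (Spearman -0.014), and of 516 genes with an unadjusted p under 0.05 at P66 223 (43.22%) had the same sign at P22. Here too the share of same signs over all genes was not computed.

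The 2 cohorts were compared directly, because several of the values above came mainly from cohort 2. By edgeR 0 of 6910 genes (0.0%) had a genotype effect that differed between cohorts at an adjusted p under 0.05, the smallest adjusted p being 0.1545, while 781 (11.3%) had an unadjusted p under 0.05, limma-voom called 0 and DESeq2 called 65. The smallest p were those of Slco5a1 (cohort 2 minus cohort 1, 1.02 ± 0.178), Hspa5 (-0.83 ± 0.152), Reck, an inhibitor of matrix metalloproteases (0.49 ± 0.0954), Thbd, which encodes thrombomodulin (-0.88 ± 0.175), and Zbtb40 (-0.81 ± 0.167). Slco5a1 had 11.4 and 10.99 CPM in knockout and 5.85 to 7.64 CPM in wildtype animals of cohort 2, and 7.88 to 8.75 CPM in knockout and 7.77 to 11.3 CPM in wildtype animals of cohort 1. Thbd had 9.78 and 10.5 CPM in knockout and 16.5 to 19.2 CPM in wildtype animals of cohort 2, and 13.7 to 15.5 CPM in knockout and 10.04 to 16.3 CPM in wildtype animals of cohort 1. Dbp and Pdia4 differed between cohorts by 0.97 ± 0.228 and -0.76 ± 0.172 (both adjusted p = 0.1577 by edgeR). Among the 65 genes called by DESeq2 were Hspa5, Pdia4, Hspb1, Dbp, Slco5a1, Thbd, Reck and Zbtb40. Over 6882 genes the differences in cohort 1 and cohort 2, which share no animal, had a correlation across genes of 0.033 (Spearman -0.023). Deaf1 (0.15 and 0.15), Klk10 (0.91 and 0.95) and Garem2 (0.28 and 0.21) had like values in cohorts 2 and 1. These genes had a small p in the fit of both cohorts, which by itself favours like values. Of 516 genes with an unadjusted p under 0.05 in that fit, 492 (95.35%) had the same sign in both cohorts. Cohort 2 held 2 separated knockout animals, so its values depend on both.

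**Figure D5:**
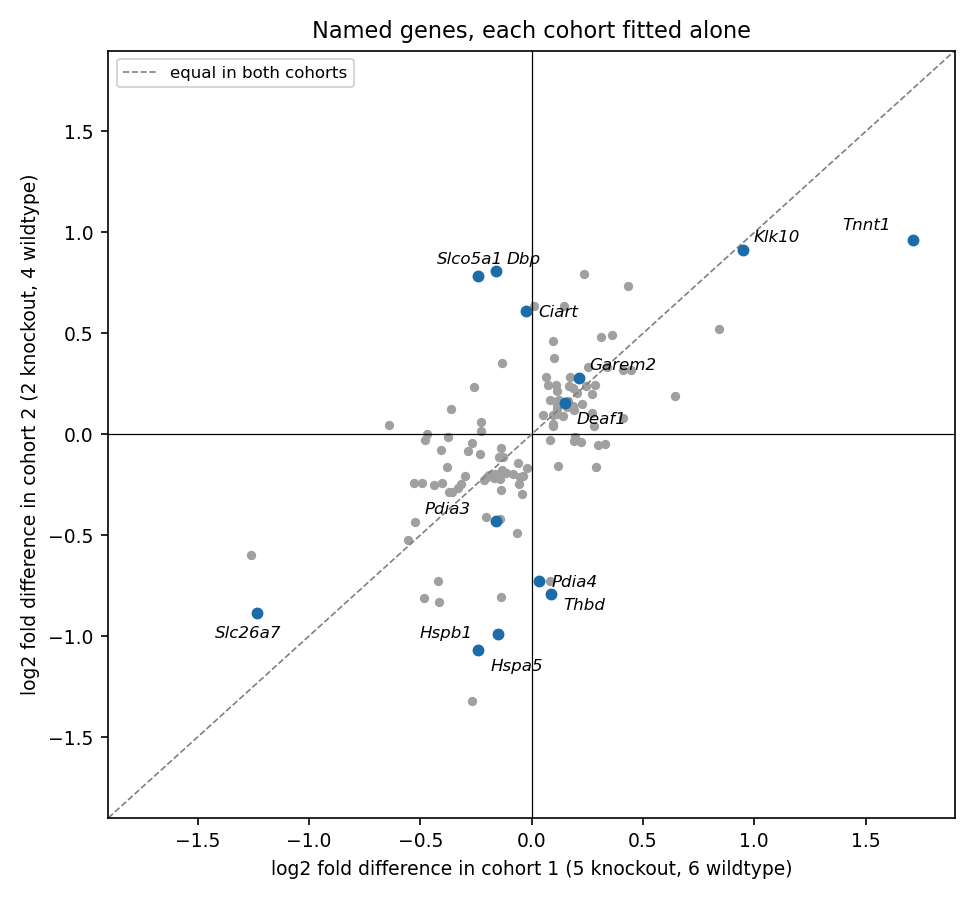
Log2 fold differences of separated knockout minus separated wildtype animals for the named genes in cohort 1 (x axis, 5 knockout and 6 wildtype animals) and cohort 2 (y axis, 2 knockout and 4 wildtype animals), each cohort fitted alone, 1 point per gene. On the dashed line both cohorts are equal, as for Deaf1 (0.15 in each), whereas Hspa5 (-1.07 in cohort 2, -0.24 in cohort 1) lies below it and Dbp (0.81 in cohort 2, -0.16 in cohort 1) above it.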

How the data were processed

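Hippocampal RNA was sequenced in 1 library per animal. The submitters' processing notes name FastQC 0.11.4 and cutadapt 1.16, and further edgeR and limma 3.34.9. Aligner, counter, strand setting and build: not given in the sources used here. Raw counts were deposited by the authors, as reads per gene. The table held has 9930 complete records, and 1 broken record was left out. Of the identifiers 99.55% are in GENCODE M21, 96.5% of these at the same position, so positions are on GRCm38.

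The fits used edgeR 4.0.16 under R 4.3.3, with filterByExpr (minimum count 10, minimum total 15), TMM, a quasi-likelihood model of genotype and cohort, and Benjamini-Hochberg adjustment over all tested genes. The interaction, age and cohort differences were terms of fits over the animals concerned. CPM are on TMM-scaled library sizes. Alternatives were DESeq2 1.42.0, limma 3.58.1 (voom), RLE normalization, other filters and covariates, each cohort alone and leaving out each animal. The fits were also run on simulated counts with known differences, drawn without cohort effects or effects shared within a library. The outcome is not reported here. No duplicate library was found among 66 pairs of animals within groups (chi-square per degree of freedom 5.86 to 88.0).

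The comparison and the gene lists were chosen with earlier results of these data known. Since no gene was called, the rule names the 10 genes of smallest p in each direction, the 5 of smallest p in each difference test, the 2 of smallest p in each list, and Hspa5, Pdia3, Pdia4, Hsph1, Garem2, Dbp, Ciart, Arntl and Per3. Other list members with an unadjusted p under 0.05, and the animals C1-54, C1-55 and C1-56, were named after their values were seen. Some genes that the rule names are not reported here. Promoter sequences are RefSeq's.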

Additional observations from a re-analysis of the deposited data

Results flagged for a closer look

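In both separated P66 groups the levels of 38 genes and the summed levels of the cell type lists were examined for an animal far from the others of its group. Of 108 such checks 4 gave one, where chance gives about 1 in 20. Knockout C1-56 had a summed level of oligodendrocyte precursor genes of 663.3 CPM, and the other 6 separated knockout animals had 848.3 to 949.1 CPM. The same animal had 278.3 CPM in the sum of pericyte and vascular smooth muscle genes, against 348.7 to 369.1 CPM in the others of its group. Knockout C1-54 had a summed level of meningeal and matrix genes of 758.2 CPM, the others 995.7 to 1190 CPM. Wildtype C1-55 had 7261 CPM in the sum of CA field pyramidal neuron genes, the other 9 separated wildtype animals 5734 to 6304 CPM.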

How the results depend on the processing

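The count of 0 called genes held by RLE normalization, limma-voom, a filter of 1 CPM in at least 7 libraries or no filter, a model without cohort, adjusted p under 0.1, all 31 P66 libraries, cohort 1 alone and choroid plexus score as covariate, and in all 17 fits that left out 1 animal. DESeq2 called 3 genes and cohort 2 alone 1. Genes with an unadjusted p under 0.05 numbered 520, 350 to 1025 when 1 animal was left out, and 782 with all 31 P66 libraries. DESeq2 called 7 genes after control rearing, 1 at P22 (Slc6a13) and 65 for the cohort difference, where edgeR called 0. The causes of these differences were not tested. Over 120 named genes 3477 alternative values were computed. Of these 25 had another sign than the main value, in 21 genes, mostly in a cohort fitted alone. Of the 20 genes with the smallest p 0 changed sign. They were chosen by p in these same animals, which by itself makes a change of sign unlikely. In the comparison of separated animals at P66 4 of the alternative values passed a threshold that the main value missed (Deaf1, Pdia3 and Hspa5 by DESeq2, Hspa5 in cohort 2 alone). No paired analysis was possible because animals were numbered anew in each cohort and rearing group, so equal numbers belong to different animals. At this depth and spread the median 95% interval reached 0.154 (log2) to either side, or 1.11-fold.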
